A study of Mus musculus with 6 samples.

Results

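The genes of the DNA replication machinery were examined in livers of Fah-deficient mice on and off NTBC. The list held 46 genes, from the subunits that mark replication origins to the enzymes that supply deoxynucleotides, and was matched to the array by gene symbol. Of these, 45 had a probe set with 1 gene symbol, out of 22180 genes measured that way, and each was read from its probe set with the highest mean log2 signal over the 6 arrays. Rfc4, a clamp loader subunit, shared its probe set with another gene and was not measured. All mice were 12-week-old males of the C57Bl/6J background whose Fah gene, which encodes the last enzyme of tyrosine breakdown, carried a point mutation that leaves a truncated, unstable protein, and they ate a chow low in tyrosine and phenylalanine. In the continuous group (3 arrays), NTBC (nitisinone), which blocks tyrosine breakdown upstream of Fah, was given at 8 mg/l in drinking water with 3% dextrose. Mice of the withdrawal group (3 arrays) had the same drug until the age of 11 weeks and then 7 days without it. Both groups carry the Fah mutation and no mice with intact Fah were analysed here. Biological replicates are named in the labels without a statement of animals or cages, so whether each array is a separate animal is not known. The p-values speak only of the spread among these arrays.

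DNA replication begins when the origin recognition complex marks a start site and Cdc6 and Cdt1 load the ring of Mcm2 to Mcm7 around DNA. Cdc45 and the GINS complex turn that ring into the active helicase, primase and polymerase alpha lay primers, and the sliding clamp PCNA holds polymerases delta and epsilon on the template. Hepatocytes of the adult liver are mostly quiescent and enter the cycle again after tissue loss, and many of these genes are transcribed under E2F control as cells leave quiescence.

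Upstream DNA is shown for 4 members that were chosen after their changes were seen. Pcna and Mcm6 had the largest rises and Mcm10 the largest fall. Mcm5 is among the subunits of the same helicase as Mcm6 that did not pass, and its difference from Mcm6 was not tested. The 250 bases before the annotated start site are taken from RefSeq (GRCm38.p6), 5′ to 3′ on the strand of the gene. Capitals mark E2F-type octamers (TTTGGCGC, TTTCCCGC, TTTCGCGC or TTTGCCGC, on either strand) and CCAAT boxes (CCAAT, or ATTGG on the other strand).
Pcna promoter, chr2:132253181-132253430, minus strand: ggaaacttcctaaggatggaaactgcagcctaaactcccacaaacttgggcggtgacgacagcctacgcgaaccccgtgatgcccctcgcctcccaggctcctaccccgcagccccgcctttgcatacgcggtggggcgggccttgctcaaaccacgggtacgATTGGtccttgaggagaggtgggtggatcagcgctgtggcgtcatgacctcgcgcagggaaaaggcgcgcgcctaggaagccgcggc
Mcm6 promoter, chr1:128359706-128359955, minus strand: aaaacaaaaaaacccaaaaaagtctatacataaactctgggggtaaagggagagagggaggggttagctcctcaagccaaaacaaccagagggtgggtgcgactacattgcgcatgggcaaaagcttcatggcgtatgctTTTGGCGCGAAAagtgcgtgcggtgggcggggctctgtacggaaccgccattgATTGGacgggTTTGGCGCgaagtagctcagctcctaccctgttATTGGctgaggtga
Mcm5 promoter, chr8:75109259-75109508, plus strand: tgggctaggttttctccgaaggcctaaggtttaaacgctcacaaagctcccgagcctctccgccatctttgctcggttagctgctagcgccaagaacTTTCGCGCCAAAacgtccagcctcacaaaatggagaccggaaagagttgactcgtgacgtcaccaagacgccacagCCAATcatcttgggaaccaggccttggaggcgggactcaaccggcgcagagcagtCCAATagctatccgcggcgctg
Mcm10 promoter, chr2:5012792-5013041, minus strand: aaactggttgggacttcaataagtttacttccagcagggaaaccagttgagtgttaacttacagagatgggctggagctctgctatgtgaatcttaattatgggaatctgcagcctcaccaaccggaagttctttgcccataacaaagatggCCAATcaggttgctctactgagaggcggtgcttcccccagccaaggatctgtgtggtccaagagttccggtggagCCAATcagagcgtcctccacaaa

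Within the windows, Mcm6 held 3 E2F-type octamers, of which a pair overlaps, and 2 CCAAT boxes. Mcm5 held 2 octamers that overlap each other and 2 CCAAT boxes, whereas Pcna held 1 CCAAT box and Mcm10 2, with none of these octamers. RefSeq windows were found for 38 of the 46 listed genes. An octamer lay upstream of 9 of the 38 (23.7%) and of 2.16% of 27025 genes with a window. The 9 were Cdc6, Gins3, Mcm5, Mcm6, Mcm7, Orc1, Orc3, Pola1 and Rfc3, so 1 of the 8 genes that passed the expression test was among them. CCAAT boxes lay upstream of 24 of the 38 (63.2%) and of 37.5% of all genes, and the CHR element (TTTGAA, either strand) of 5 (13.2%) and 18.3%. These matches are descriptions of letters in a fixed window and not sites of binding.

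After NTBC withdrawal, a small part of the replication machinery passed the test against continuous NTBC, with calls in both directions. Limma called 6 genes higher (Pcna, Mcm6, Mcm2, Orc4, Orc5 and Orc2) and 2 lower (Mcm10 and Tk1) at a Benjamini-Hochberg adjusted p of 0.05 over all 34472 probe sets. The other 37 did not pass. The 6 higher genes are 13.3% of the 45, where 7.58% of all genes (6.21% of all probe sets) were called higher. The 2 lower ones are 4.44%, close to the 3.39% of all genes (3.20% of all probe sets) that were called lower. The median log2 change of the 45 was 0.10, with a range from -1.03 to 1.29, beside -0.06 over all genes. With 1 array left out, that median lay between 0.07 and 0.19. Without continuous replicate 2 the count of higher genes was 3, without withdrawal replicate 1 it was 2, and without withdrawal replicate 2 it was 1 (Pcna), while the 2 lower genes passed with any 1 array left out. Over all probe sets, 2139 were called higher in the reported fit and 1327, 935 and 1122 in these settings, in the same order. Calls were thus lost across the whole array, which also bears on the left-out counts of the lists below. Liver endothelial markers moved with the groups, with 8 of 10 wholly above on withdrawal, beside 17.1% of all genes. Their mean signals were 7.28 to 7.60 on the continuous and 7.88 to 7.91 on the withdrawal arrays. Hepatocyte markers (12.18 to 12.30 and 11.86 to 12.08) and neutrophil and monocyte markers (4.52 to 4.73 and 4.31 to 4.48) were lower on every withdrawal array in their mean signal. The median change of the 9 hepatocyte markers was only -0.07, with 3 above 0 and the largest fall, -1.08, in Cps1. The mean signal of 3 erythroid markers was higher (5.11 to 5.40 and 6.11 to 6.19), with Tfrc up by 3.21. The other 2 of the 3 had changes below 0, and the list median was -0.01. The part of these marker shifts in the results was not tested. In bulk tissue, fewer cells of a type and less RNA per cell cannot be told apart.

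**Figure D1:**
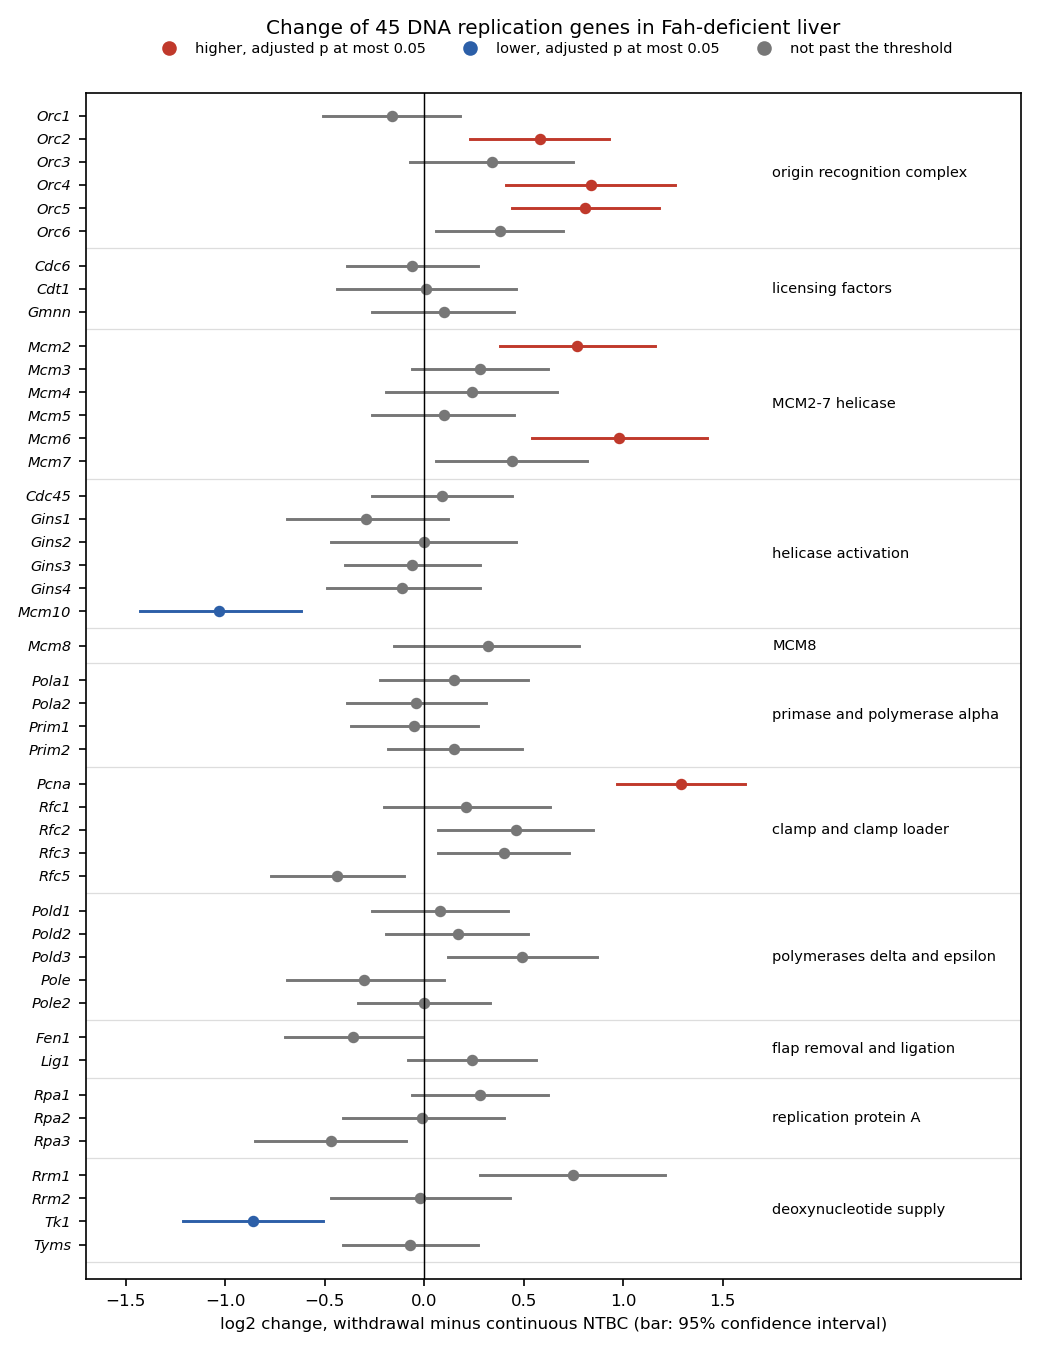
Log2 change (withdrawal minus continuous NTBC, x axis) of the 45 measured replication genes, grouped by role, with points for the estimate and bars for its 95% confidence interval from limma. The 6 higher genes lie among the origin recognition complex, the MCM helicase and the clamp, and the 2 lower ones, Mcm10 and Tk1, in other groups.

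The origin recognition complex binds origins and recruits the loading factors. Of its 6 subunits, 3 rose (50%, beside 7.58% of all genes) and none fell, with a median change of 0.48. Orc4 had log2 signals of 7.08, 6.77 and 7.47 on the continuous arrays and 7.80, 8.04 and 7.99 after withdrawal. Each withdrawal array was above each continuous one, with a change of 0.84 (SE 0.19, 1.79-fold, limma adjusted p = 0.0213). Orc5 had 6.87, 6.84 and 6.52 with NTBC and 7.45, 7.77 and 7.43 without it, also with no overlap (change 0.81, SE 0.17, adjusted p = 0.0133). Orc2 went from 5.97, 5.65 and 6.07 to 6.48, 6.53 and 6.41, a smaller step of 0.58 (SE 0.16, adjusted p = 0.0472) that lay just inside the threshold. Orc6 (0.38, 95% confidence interval 0.06 to 0.70, adjusted p = 0.138) had no overlap between groups but did not pass. Orc3 (0.34, interval -0.07 to 0.75) and Orc1 (-0.16, interval -0.51 to 0.18), the subunit whose level is known to vary with the cell cycle, did not pass either. Orc1 was dim (means 4.34 and 4.18), close to the lower quartiles of the arrays (4.03 to 4.26), so a difference could be compressed there. The Orc2 call was lost with quantile normalization (adjusted p = 0.0514) and with any 1 array left out, with adjusted p from 0.0513 without continuous replicate 1 to 0.171 without withdrawal replicate 1. Orc4 did not pass after quantile normalization (0.0772), when continuous replicate 2 was left out (0.0715), or when a withdrawal array was (0.0563, 0.0890 and 0.0630 for replicates 1, 2 and 3). Orc5 did not pass without withdrawal replicate 2 (0.0670). In RefSeq, Orc4 overlaps Acvr2a, an activin receptor gene that had a change of 0.53 (SE 0.17, adjusted p = 0.0870), and Mbd5, for which no value was read. Orc5 overlaps the pseudogene Gm15421 (0.05, SE 0.16) and the snRNA gene Gm22887, and Orc2 the snRNA gene Gm23966. Which strand or exons the probes read is not stated.

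None of the 3 factors that govern helicase loading passed. Cdc6, the ATPase that joins the origin complex, had a change of -0.06 (interval -0.39 to 0.27). Cdt1, which escorts the MCM ring, had 0.01 (interval -0.44 to 0.46), with signals from 5.77 to 6.54 on the continuous and 6.06 to 6.33 on the withdrawal arrays. Gmnn, the inhibitor of Cdt1, had 0.10 (interval -0.26 to 0.45). Their unadjusted p-values were 0.694, 0.961 and 0.561, and the intervals still allow a rise of up to 0.46 on the log2 scale.

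The 6 subunits of the MCM ring, which opens the double helix, all had changes above 0, from 0.10 to 0.98. Only 2 passed (33.3%, beside 7.58% of all genes called higher). Mcm6 had log2 signals of 6.08, 5.92 and 6.51 on continuous NTBC and 7.40, 7.19 and 6.86 after withdrawal. Its groups did not overlap, and the change was 0.98 (SE 0.20, 1.97-fold, adjusted p = 0.0125). Mcm2 had 6.29, 6.58 and 5.96 with NTBC and 7.04, 7.06 and 7.03 without it. The withdrawal values of Mcm2 were nearly equal (SD 0.02) and lay above more scattered continuous ones (SD 0.31), with a change of 0.77 (SE 0.18, adjusted p = 0.0217). Mcm7 (0.44, interval 0.06 to 0.82, adjusted p = 0.149) and Mcm3 (0.28, interval -0.06 to 0.62) had no overlap between groups and did not pass. Mcm4 (0.24, interval -0.19 to 0.67) and Mcm5 (0.10, interval -0.26 to 0.45) overlapped. Whether the subunits differ from each other was not tested. The ring's median was 0.36 as deposited, 0.35 with quantile normalization and 0.46 with each array centred on its median. Leaving out continuous replicate 2 (adjusted p = 0.0540) or withdrawal replicate 1 (0.0705) or 2 (0.0526) put Mcm6 above the 0.05 threshold. For Mcm2 the same held for continuous replicate 3 (0.0657) and for each withdrawal array (0.0892, 0.0808 and 0.0568 for replicates 1, 2 and 3).

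Helicase activation showed the largest fall of the list. Mcm10, a scaffold that helps start unwinding and is no subunit of the ring, had log2 signals of 8.13, 7.46 and 7.83 on continuous NTBC and 6.75, 6.85 and 6.74 after withdrawal. All withdrawal arrays lay below all continuous ones, with a change of -1.03 (SE 0.18, 2.04-fold lower, adjusted p = 0.00633). This call passed in all 15 alternative settings (adjusted p up to 0.0337). No gene in the RefSeq table overlaps Mcm10. Cdc45 (0.09, interval -0.26 to 0.44) and the GINS subunits Gins1 (-0.29, interval -0.69 to 0.12), Gins3 (-0.06, interval -0.40 to 0.28) and Gins4 (-0.11, interval -0.49 to 0.28) did not pass, and their groups overlapped. Gins2 had means of 5.27 ± 0.43 and 5.26 ± 0.08 (SD, n = 3). Mcm8, a related helicase of recombination repair rather than of the ring, had 0.32 (interval -0.15 to 0.78).

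**Figure D2:**
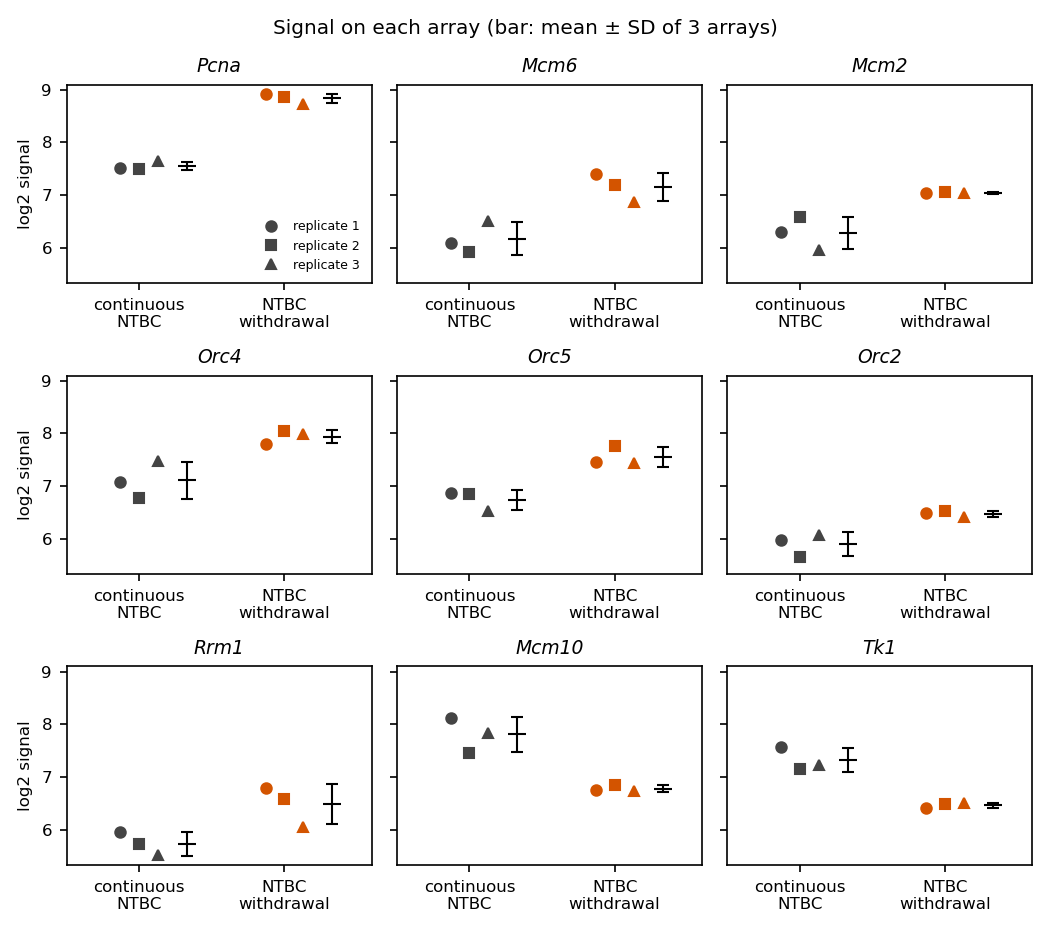
Log2 signal (y axis) on each of the 3 continuous (grey) and 3 withdrawal (orange) arrays for the 8 genes that passed and Rrm1, with marker shapes for replicate numbers and bars for mean ± SD. In each panel the groups do not overlap, and Mcm10 and Tk1 are the genes with the withdrawal arrays below.

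Pcna, the sliding clamp that tethers polymerases and also serves repair and translesion synthesis, rose more than any other gene of the list. Its log2 signals were 7.51, 7.50 and 7.65 on continuous NTBC and 8.92, 8.87 and 8.74 after withdrawal. Each group was tight (SD 0.08 and 0.09) and they did not overlap, with a change of 1.29 (SE 0.14, 2.45-fold, adjusted p = 0.000402). It was the 1 gene of the list with a rise of at least 2-fold that passed, where 2.58% of all genes did so, and Mcm10 the 1 with such a fall, where 1.38% did so. The Pcna call passed in all 15 alternative settings (adjusted p up to 0.00417). The clamp loader opens and closes the ring around DNA. Rfc2 (0.46, interval 0.07 to 0.85, adjusted p = 0.141) and Rfc3 (0.40, interval 0.07 to 0.73, adjusted p = 0.131) had withdrawal arrays wholly above. Rfc5 had them wholly below (-0.44, interval -0.77 to -0.10, adjusted p = 0.104), and Rfc1, the large subunit, overlapped (0.21, interval -0.20 to 0.63). None of the 4 passed in the reported fit, while Rfc2 and Rfc3 did with array weights. Whether these subunits differ from each other or from Pcna was not tested.

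No subunit of polymerases alpha, delta or epsilon passed in either direction. Polymerase alpha and its primase, which make the RNA-DNA primers, had changes of 0.15 for Pola1, -0.04 for Pola2, -0.05 for Prim1 and 0.15 for Prim2, with intervals between -0.39 and 0.52. Among the subunits of polymerases delta and epsilon, Pold3 had 6.69, 6.26 and 6.37 with NTBC and 7.13, 6.89 and 6.78 without it. These groups did not overlap, and the change of 0.49 (interval 0.12 to 0.87) gave adjusted p = 0.105. Pold3 passed without continuous replicate 1 and with array weights. Pold1, the catalytic subunit of delta, had 0.08 (interval -0.26 to 0.42) and Pold2 had 0.17 (interval -0.19 to 0.52). Pole, the catalytic subunit of epsilon, had -0.30 (interval -0.69 to 0.10) on its brighter probe set, and means of 4.96 in both groups on a second one. Pole2 had 4.14 in both groups and lay below the lower quartile of the array on 2 of 6 arrays, so a difference could be compressed there.

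The factors that finish and protect the strands did not pass. Fen1, which cuts the flaps of Okazaki fragments, had withdrawal arrays wholly below (-0.36, interval -0.70 to -0.01, adjusted p = 0.198), but its dimmer probe set had a change of 0.06. Lig1, which seals the nicks, had them wholly above (0.24, interval -0.08 to 0.56). Of replication protein A, which coats single strands, Rpa1 had 0.28 (interval -0.06 to 0.62), Rpa2 -0.01 (interval -0.41 to 0.40) and Rpa3 -0.47 (interval -0.85 to -0.09, adjusted p = 0.125). The dimmer probe sets of Rpa1 (-0.09) and Rpa3 (0.16) had the opposite sign, so the direction of these subunits is uncertain.

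Among the enzymes that supply deoxynucleotides, Tk1, the cytosolic thymidine kinase of the salvage route, fell. It had 7.58, 7.16 and 7.23 on continuous NTBC and 6.41, 6.48 and 6.50 after withdrawal. The groups did not overlap, and the change was -0.86 (SE 0.16, 1.82-fold lower, adjusted p = 0.00756), which passed in all 15 alternative settings (adjusted p up to 0.0467). In RefSeq, Tk1 overlaps Afmid, a liver gene of tryptophan breakdown, whose probe set had a change of -0.99 (SE 0.29, adjusted p = 0.0614). Which transcripts the Tk1 probes read is not stated, so the part of Afmid in the Tk1 signal was not tested. Rrm1, the large subunit of ribonucleotide reductase, had 5.96, 5.72 and 5.51 with NTBC and 6.79, 6.59 and 6.05 without it. Its groups did not overlap, and the change of 0.75 (SE 0.21) missed the threshold (adjusted p = 0.0524), with 0.0482 after centring each array and 0.221 without withdrawal replicate 1. Rrm2, the S phase subunit of the same enzyme, had -0.02 (interval -0.47 to 0.43) on its brighter probe set and -0.51 on a very dim one (adjusted p = 0.0675). Tyms, which makes thymidylate de novo, had -0.07 (interval -0.41 to 0.27).

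Across the list, the withdrawal arrays lay wholly above the continuous ones for 15 of the 45 genes (33.3%, against 17.1% of all genes) and wholly below for 5 (11.1%, against 13.4%). The other 25 overlapped. An unadjusted p under 0.05 was found for 17 (37.8%) and for 25.8% of all genes. The median deviation of the 45 genes from their own means was -0.03, -0.10 and -0.12 on the continuous arrays and 0.10, 0.09 and 0.00 on the withdrawal arrays, so withdrawal replicate 3 stood nearest to the continuous group. The median signal over all probe sets was 5.26, 5.21 and 5.39 on the same 3 withdrawal arrays and 5.29 to 5.44 on the continuous ones. With every array centred on its median, the list's median change was 0.20, while over all probe sets it went from -0.08 to 0.02.

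Other genes of the replication fork and its supply were read from lists beside the 45. Of 26 measured genes of initiation and fork passage, 2 rose (7.69%, beside 7.58% of all genes) and none fell. Their median change was 0.16. Of these genes 4 rose with each array centred on its median and 5 with array weights. Dbf4, the activator of the Cdc7 kinase that fires licensed origins, had 5.11, 5.29 and 5.14 with NTBC and 6.11, 6.28 and 5.85 without it. Those groups did not overlap (change 0.90, SE 0.16, adjusted p = 0.00624). Rnaseh2b, of the enzyme that removes ribonucleotides from DNA, rose by 0.74 (adjusted p = 0.0236), but not when continuous replicate 2 or withdrawal replicate 1 or 2 was left out (adjusted p up to 0.0996), and the count was 1 without either of those withdrawal arrays. Of 14 other deoxynucleotide genes, 4 rose (28.6%, beside 7.58% of all genes) and 1 fell (7.14%, beside 3.39%). Their median was 0.25, and 2 fell with quantile normalization. The nucleotide kinases Nme1 (0.86, adjusted p = 0.00705) and Cmpk1 (0.82, adjusted p = 0.00752) rose with any 1 array left out. Dctd, a deoxycytidylate deaminase (0.87), and Dck, deoxycytidine kinase (0.52), rose, but neither passed when continuous replicate 3 or a withdrawal array was left out (adjusted p up to 0.0942 and 0.187), which left 2 higher genes. Dck was also lost without continuous replicate 1 or 2. The nucleoside transporter Slc29a1 fell (-0.80, adjusted p = 0.0102), a call lost without withdrawal replicate 1 (0.0528) and with the mean of its probe sets. Rrm2b, the reductase subunit induced by p53, had 0.38 (SE 0.17, adjusted p = 0.217). Of 9 chromatin assembly genes at the fork, 1 rose (11.1%, beside 7.58% of all genes), the histone chaperone Asf1a (0.95, SE 0.17, adjusted p = 0.00575). The median of the 9 was 0.33, and withdrawal arrays lay wholly above for 6 (66.7%, beside 17.1% of all genes). Without continuous replicate 1 the count of higher genes was 2, and with array weights 3.

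Regulators of S phase entry and markers of dividing cells were measured on the same arrays. E2f1, the activating E2F, had signals of 5.89, 6.40 and 6.05 with NTBC and 6.23, 5.86 and 6.26 without it, which overlap (interval -0.40 to 0.41). Of 18 E2F, DP and pocket protein genes, 3 rose (16.7%, beside 7.58% of all genes) and none fell, with a median of 0.10. With quantile normalization 1 was higher and 1 lower, with a median of 0.04. The 3 were Rb1 (0.68), E2f6 (0.62), a repressive E2F, and Lin37 (0.60), and the count was 0 without continuous replicate 2 or 3 or withdrawal replicate 1 or 2. A second, dim probe set of Rb1 had the opposite sign (-0.65), and the mean of both gave adjusted p = 0.969. Of 11 G1 and S phase cyclin and kinase genes, 2 rose (18.2%, beside 7.58% of all genes), or 4 with array weights. Cdkn1a, the inhibitor p21 that blocks S phase entry, had 6.32, 6.07 and 6.99 with NTBC and 10.57, 10.37 and 10.29 without it (15.5-fold, adjusted p = 8.27e-06). Ccnd3, a G1 cyclin, rose by 0.94 (adjusted p = 0.0110, and 0.0585 without withdrawal replicate 1, which left 1 higher gene). The S phase cyclins Ccne1 (0.24, interval -0.11 to 0.59) and Ccna2 (-0.07, interval -0.63 to 0.50) did not pass. Of 14 proliferation markers, limma called 0 in either direction, with 1 at an unadjusted p under 0.05 and a median of -0.13. Without continuous replicate 1, 1 of them was called lower. Mki67 (-0.11, interval -0.46 to 0.23) and Top2a (-0.22, interval -0.63 to 0.19) were among them. Mean signals of the 14 markers were low, 4.96 to 5.35 on the continuous and 5.14 to 5.19 on the withdrawal arrays. Array medians were 5.21 to 5.44. Bub1 lay below the lower quartile on all arrays, so differences in this list could be compressed.

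Of 22 measured genes of the replication checkpoint and lesion bypass, 8 rose (36.4%, beside 7.58% of all genes) and none fell. Their median change was 0.33, beside -0.06 over all genes. The list was chosen with earlier results of these data known, so its share of called genes is not independent of them. Wee1, the kinase that holds Cdk1 inactive, had 5.38, 5.85 and 4.86 with NTBC and 7.99, 7.89 and 7.75 without it (5.71-fold, adjusted p = 0.000125). The translesion polymerases Polh (1.31, SE 0.16, adjusted p = 0.000684) and Polk (1.22, SE 0.15, adjusted p = 0.000935) and Hus1 (1.07, SE 0.16, adjusted p = 0.00277), a subunit of the checkpoint clamp that resembles PCNA, rose as well. These 4 calls passed in all 15 alternative settings. The others were Usp1, which removes ubiquitin from PCNA, and Rad17, Cdc25a and Rev1. The count was 5 without continuous replicate 2, 4 without withdrawal replicate 1 and 5 without withdrawal replicate 2.

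**Figure D3:**
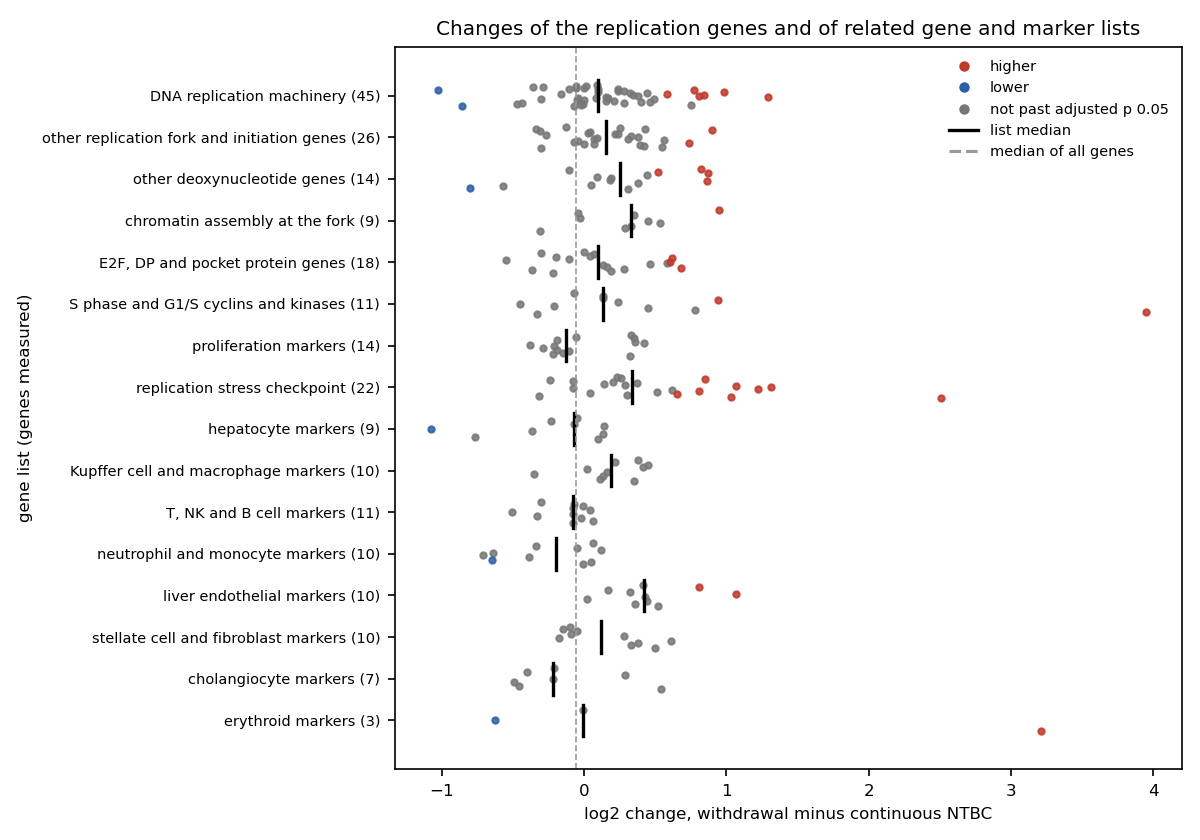
Log2 change (x axis) of each measured gene of the replication machinery, of related lists and of cell type markers (y axis, with the number measured), with red and blue points for genes called higher and lower, black bars for list medians and a dashed line at the median of all genes, -0.06. The replication genes spread around 0 with a median of 0.10, and Cdkn1a, Tfrc and Wee1 lie farthest to the right.

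The labelled tissue was checked with marker lists. Over all genes, 7.58% were called higher and 3.39% lower, and 25.8% had an unadjusted p under 0.05. Of the hepatocyte markers, at the mean signals given above, 1 of 9 was called lower (Cps1, a urea cycle enzyme, -1.08). Of 10 endothelial markers 2 rose, Clec4g (0.81) and Lyve1 (1.07, lost in 4 of 6 left-out arrays), with a list median of 0.42. The ranges of Kupffer cell markers (6.87 to 7.13 and 6.88 to 7.39) and of stellate cell markers (6.74 to 7.05 and 6.98 to 7.12) overlapped between groups, with 0 of 10 called by limma in each list and 1 and 3 at an unadjusted p under 0.05. T, NK and B cell markers (4.94 to 5.06 and 4.74 to 4.99) had 0 of 11 called and 1 at an unadjusted p under 0.05, and cholangiocyte markers (5.00 to 5.35 and 4.92 to 5.16) had 0 of 7 called and 1. Neutrophil and monocyte markers were dim, with 4 of 10 wholly below on withdrawal, beside 13.4% of all genes. Of these markers 1 was called lower (Retnlg, below the lower quartile on all arrays). Of 10 erythroid markers 3 were measured, among which Tfrc, the transferrin receptor that many cell types use, rose by 3.21 and Klf1 fell (-0.63). Retnlg and Klf1 lost their calls without continuous replicate 2 or 3 or withdrawal replicate 1 or 2, among other settings. Fah itself had 7.82 ± 0.42 with NTBC and 7.66 ± 0.23 after withdrawal (adjusted p = 0.718). Both groups carry the mutation, so this is no check of the labels.

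**Figure D4:**
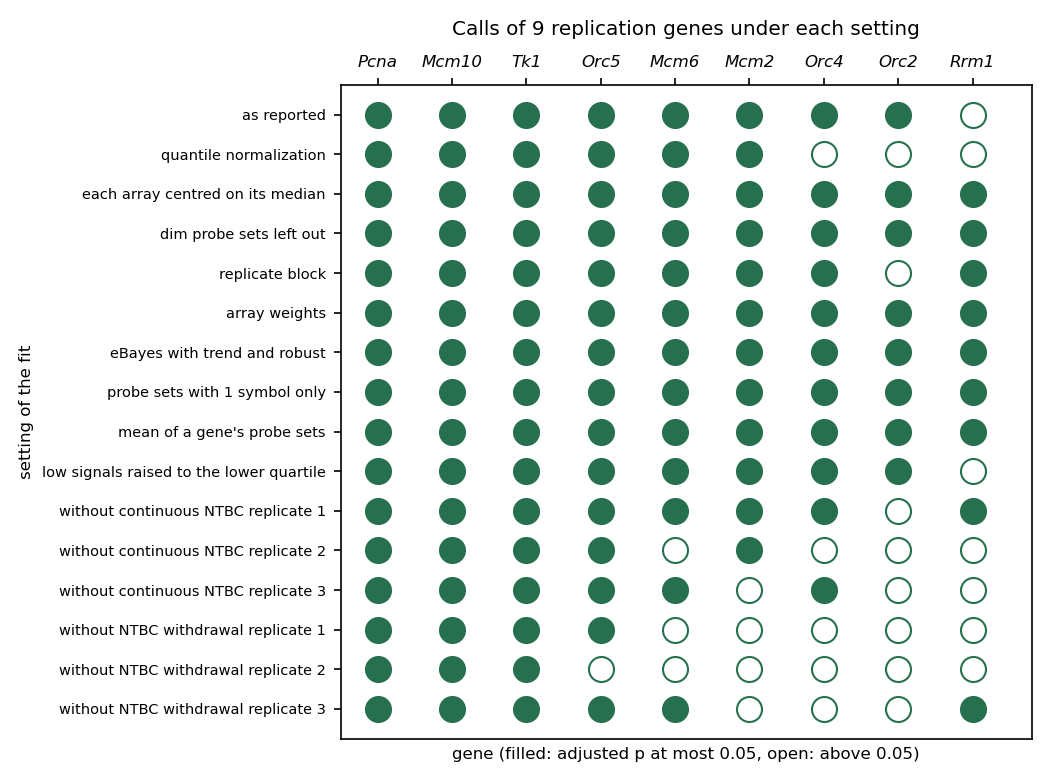
Calls of the 8 genes that passed and of Rrm1 (columns) in the reported fit and under 15 alternative settings (rows), with filled circles for an adjusted p of at most 0.05 and open circles for one above it. Pcna, Mcm10 and Tk1 are filled in every row, while Orc2 is open for each left-out array.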

How the data were processed

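Mouse liver RNA was hybridised to 6 Affymetrix whole-transcript gene arrays, per the labels' protocols. The authors deposited linear, normalized intensities, 1 for each probe set on each array. The submitters' processing notes name Transcriptome Analysis Console. Its version and normalization are not given in the sources used here. Log2 values rounded to 2 decimals and turned back gave the deposited intensities within 0.006 intensity units for 100% of them. The lowest intensity of each array, on the linear scale and not in log2, lay between 3.58 and 3.89, so folds of low signals may be compressed. Precision is limited by having 3 arrays in each group.

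Limma 3.58.1 (R 4.3.3) was run on the log2 values of the 34472 probe sets without a filter, with lmFit and eBayes (degrees of freedom 4 residual, 10.2 in total). Continuous NTBC was subtracted from withdrawal. The two-sided p-values were adjusted by Benjamini-Hochberg over the whole table. Intervals are 95% confidence intervals of that fit. Probe sets had 1 symbol (23521), several (1814) or none (9137) in the platform annotation, and only the first kind was named. All 45 symbols matched RefSeq (GRCm38.p6) by identifier. The build of the array design is not given in the sources used here. The fit was tested on simulated data.

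All 45 genes were eligible to be named, with array values for those past the threshold. From the other lists, called genes (at most the 4 with the smallest p per direction, given in full) and Mki67, Top2a, Cdkn1a, Rrm2b, E2f1, Ccne1, Ccna2 and Fah were named. Usp1, Rad17, Cdc25a and Rev1 lie outside that rule and were named after their values were seen, as were Afmid and Acvr2a, which overlap called genes. Array values of some genes that did not pass were also chosen after they were seen. The members and lists were chosen with earlier results of these data known, so their shares of called genes are not independent of them. Alternatives were other scalings, weights, priors, probe set choices and filters, a replicate block and leaving out each array.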

Additional observations from a re-analysis of the deposited data

How the results depend on the processing

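The count of higher genes was 11 with array weights and the count of lower genes 2, and with a required 2-fold change the counts were 1 and 1. Array weights raised the calls over all probe sets too, to 3339 higher and 2249 lower, beside 2139 and 1102 in the reported fit. The counts with array weights given above have the same background. Leaving out 1 array gave 1 to 7 higher genes, 2 lower genes and a median change from 0.07 to 0.19. Over all probe sets it gave 935 to 2629 higher and 519 to 1581 lower. The median change of the list was 0.20 with each array centred on its median and 0.16 with array weights, beside 0.10 as reported. With quantile normalization the higher genes were 4, beside 1890 higher over all probe sets. No gene among the 8 that passed changed direction in any of the 15 settings. Replicate numbers are shared by the groups, but deviations of same-numbered arrays correlated at 0.160, -0.125 and 0.217. Only 1 of 3 continuous arrays correlated best with its own number. With so few arrays these values cannot exclude a weak pairing, and the reported fit used none. With the replicate block, 6 genes were higher and 2 lower and the median was 0.10. Orc2 was lost there (adjusted p = 0.0653) and Rrm1 passed (0.0189). Rrm1 passed in 9 of 15 settings. No background level is given with the arrays, which limits what a low signal can show.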
